A study of Mus musculus with 12 samples.

Results

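The probe sets described here measure 10 mouse genes for integrin subunits, their ligands and the adhesion receptor CD44, namely Itgb7, Itgb2, Itgb1, Itga4, Itgal, Itgae, Itga6, Icam1, Icam2 and Cd44. They were taken as every probe set whose only annotated gene symbol is one of these names, which gave 21 of the 36701 probe sets that are no Affymetrix control, or 10 of the 15964 genes that such a name picks out on these arrays, and no further probe set named one of the genes among several symbols. RNA had been prepared from total thymocytes of adult mice of 2 kinds. C57BL/6 mice were the wild type, and AND-TCR transgenic mice carried a rearranged T-cell receptor that recognizes MHC class II and is positively selected on the H-2b background. No further allele or treatment, no promoter of the transgene and no number of mice per sample are given in the sources used here. From each sample, 5 µg of total RNA was labeled and hybridized 2 times per group on each of 3 array types, U74Av2, U74Bv2 and U74Cv2, giving 12 arrays. The study performed the hybridizations as 2 independent experiments per its methods, but separate mice are not stated, so p-values measure only the spread between these hybridizations, part of which may be technical.

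Integrins are pairs of an alpha and a beta chain that tie a cell to its neighbors and to the matrix around it, and they bind strongly only once signals from inside the cell have opened them. The beta chain encoded by Itgb7 pairs with the product of Itga4, which lets lymphocytes bind the gut vessel ligand MAdCAM-1, or with the product of Itgae, which binds E-cadherin on epithelium. Itgal and Itgb2 encode the chains of LFA-1, the lymphocyte receptor for the ICAM proteins, and Itgb1 encodes the chain that pairs with many alpha chains, those of Itga4 and Itga6 included, for binding to VCAM-1, fibronectin and laminin. In the thymus such contacts hold developing cells to stroma and to the cells that present self-peptide, and the set of adhesion molecules on a thymocyte is known to be remodeled as it matures.

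The promoters of Itgb7 and of the genes for 2 chains, Itga4 and Itgb1, are shown because Itgb7 was the 1 gene here that passed the test, Itga4 encodes its partner in 1 receptor and had no probe set that passed, and Itgb1 encodes the other beta chain that pairs with the Itga4 product. Each is the RefSeq window of 300 bases, from 250 before the transcription start to 50 after it, on the GRCm38.p6 build and in the direction of the gene. The RefSeq table held such a window for 5 of the 10 genes. Capitals mark matches on either strand to the letters of 4 motifs. RUNX factors were searched as TGTGGT and, in a second form, as TGCGGT. ETS factors were searched with the letters CCGGAA and the TATA box with the letters TATAAA. KLF and SP factors were searched as CCACCC and, in a second form, as GGGCGG. The Itgb7 window is chr15:102231886-102232185 on the minus strand, the Itga4 window is chr2:79255176-79255475 on the plus strand, and the Itgb1 window is chr8:128685404-128685703 on the plus strand.
Itgb7: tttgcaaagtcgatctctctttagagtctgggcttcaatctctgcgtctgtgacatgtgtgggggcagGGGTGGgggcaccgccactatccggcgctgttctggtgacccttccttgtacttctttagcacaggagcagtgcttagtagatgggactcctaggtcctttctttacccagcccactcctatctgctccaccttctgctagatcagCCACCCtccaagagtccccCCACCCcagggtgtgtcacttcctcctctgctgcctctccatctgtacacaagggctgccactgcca
Itga4: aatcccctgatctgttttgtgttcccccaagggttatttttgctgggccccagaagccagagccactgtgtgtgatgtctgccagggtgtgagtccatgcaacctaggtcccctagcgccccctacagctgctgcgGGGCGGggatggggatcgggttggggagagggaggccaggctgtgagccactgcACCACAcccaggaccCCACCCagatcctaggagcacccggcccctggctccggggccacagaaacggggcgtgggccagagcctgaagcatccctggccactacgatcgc
Itgb1: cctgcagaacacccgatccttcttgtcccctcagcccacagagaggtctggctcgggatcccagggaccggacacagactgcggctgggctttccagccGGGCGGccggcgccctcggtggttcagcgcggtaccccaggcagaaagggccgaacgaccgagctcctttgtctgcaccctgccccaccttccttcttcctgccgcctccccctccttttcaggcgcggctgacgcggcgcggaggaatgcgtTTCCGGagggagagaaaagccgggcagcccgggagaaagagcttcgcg
The Itgb7 window held 3 matches to CCACCC or its reverse complement and none to the RUNX, ETS or TATA letters. The Itga4 window held 1 match to the first RUNX form and 1 match to each of the KLF and SP forms. The Itgb1 window held 1 match to the ETS letters and 1 to the second KLF and SP form. No matches overlapped in these 3 windows. Among 32851 RefSeq windows of the same length, 31.5% held the first and 35.7% the second KLF and SP form, 16.8% the first and 6.45% the second RUNX form, 14.9% the ETS letters and 13.6% the TATA letters. These matches are a description of the letters.

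The readings are intensities that the authors had scaled to a common mean on each array, so the levels of different probe sets are not compared. A reading counted as above the limit when it passed 2 noise SDs of its array type, which was 420.8 on U74Av2, 869.4 on U74Bv2 and 1579 on U74Cv2. A probe set was tested with limma on log2 values, with readings under the limit set to it, if both readings of C57BL/6, of AND-TCR transgenic samples or of both groups passed the limit, which was so for 12844 probe sets. A call means an adjusted p under 0.05 after the Benjamini-Hochberg method over all of them. Of the 12844, 62 were higher (0.483%) and 73 were lower (0.568%) in AND-TCR transgenic thymocytes. The headers of the array files give 1 day for all first and another for all second hybridizations, with both groups on each day, so ratios are also given for each day. Fluidics module 2 had handled every C57BL/6 array and module 4 every array of the other genotype, so module and genotype cannot be told apart.

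The thymocyte label was borne out by its markers, since 13 of 14 identity genes such as the CD3 chains passed the limit on every array of their type. The summed intensity of the 14 genes was 234367 and 235541 in C57BL/6 and 149135 and 164673 in AND-TCR transgenic samples. Of the 14, 4 were lower and none was higher (percentages of all 7843 tested genes called are 0.612% lower and 0.65% higher). The 4 lower genes were Rag1, Rag2, Cd8a and Cd8b1. Estimates were positive for 6 genes and negative for 8, so the fall in the sum was not shared by all. The CD3 chain genes (Cd3d, Cd3e, Cd3g, Cd247) had log2 fold changes of 0.06 to 0.52 and were not called. Of 15 tested markers of mature single-positive thymocytes 5 were higher and none was lower, and their sums were 83355.9 and 87973.8 against 172786 and 175265. The 5 were Gimap3, Gimap4, Ms4a4b, Slfn1 and Cd53. Ccr7 and S1pr1 were not called (adjusted p = 0.051 and 0.362 in limma). Estimates were positive for 14 of the markers and negative for 1, Il7r (-0.44 on the log2 scale). The paper had already reported Gimap3 and Gimap4 (as IAN4 and IAN1) and Ccr7 as higher from these same arrays. Those genes are thus no independent sign of a shift in maturity. No marker gene of B cells, macrophages, dendritic cells, neutrophils, NK cells, red blood cells or stroma was called, and no platelet marker was tested. With the hybridization number as a block, Blk (B cells) and Gzma (NK and cytotoxic cells) were higher and Hba-a1 (red blood cells) was lower, with adjusted p of 0.0150, 0.00469 and 0.00877 in limma. The sums mix array types that were scaled separately. In such bulk RNA, more cells of a type and more RNA of a gene per cell cannot be told apart.

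Of the 21 adhesion probe sets, 17 were on U74Av2, 3 on U74Bv2 and 1 on U74Cv2. Only 7 passed the limit on every array and 5 passed it on none. The test could be applied to 9 probe sets of 6 genes, namely Itgb7, Itgb2, Itgb1, Itga4, Itgal and Icam2, and the other 12 probe sets included all those of Itgae, Itga6, Icam1 and Cd44. Among the 9, Itgb7 was the 1 probe set called higher and none was called lower. At an unadjusted p under 0.05 there were 3 higher and 2 lower, where 7.47% and 6.51% of all tested probe sets were higher and lower. Of those 2, the Itgb1 probe set on U74Cv2 had entered the test through the C57BL/6 arrays alone. Both AND-TCR transgenic readings lay above both C57BL/6 readings for 3 probe sets, and both lay below for 4, against 23% and 21.4% of all tested probe sets. The C57BL/6 arrays alone carried 2 of those 4 past the filter, and these had to be lower in the other group to be there at all.

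**Figure D1:**
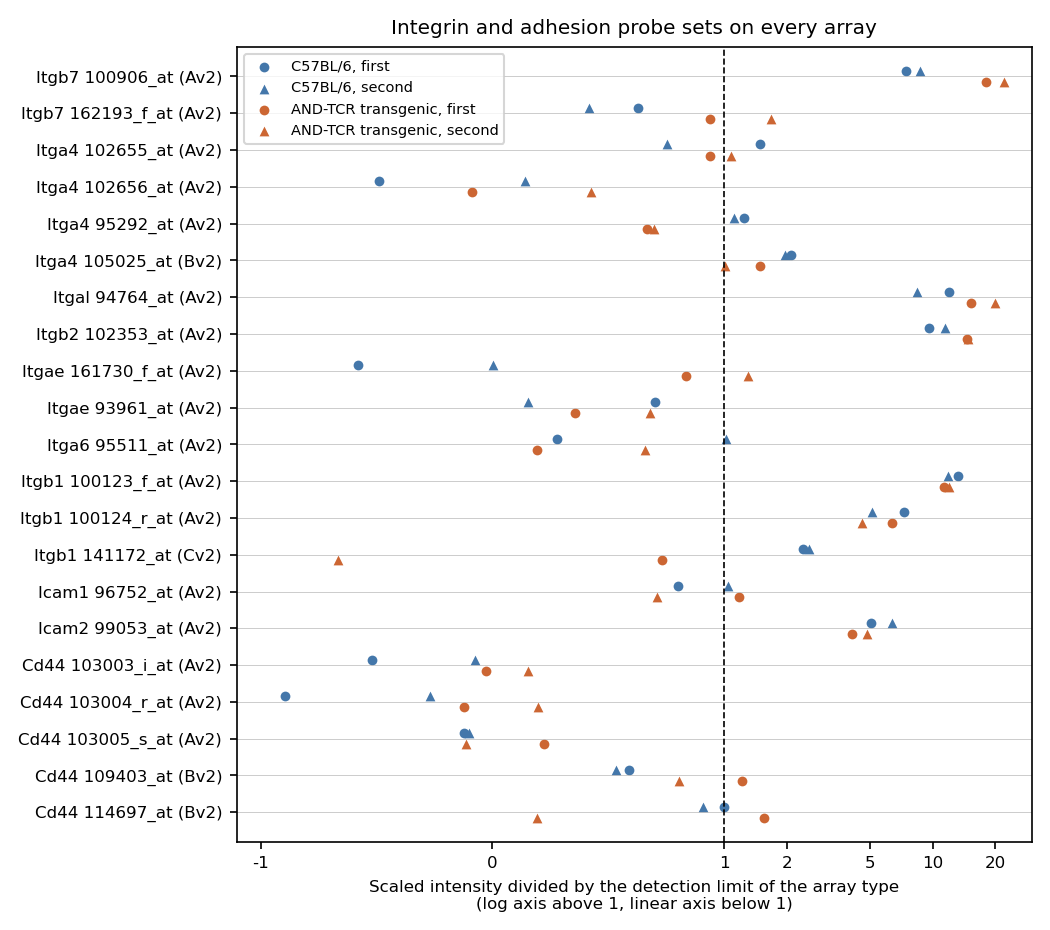
Readings of the 21 integrin and adhesion probe sets on each of the 4 arrays of their type, divided by the detection limit of the array type (dashed line; the axis is logarithmic above 1 and linear below). Circles and triangles are the first and second hybridizations, blue is C57BL/6 and orange is AND-TCR transgenic, and 7 probe sets lie right of the line on all 4 arrays.

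Of the 3 beta chain genes among the members, Itgb7 was the 1 that passed the test. Probe set 100906_at for Itgb7 read 3145 and 3647.9 on the first and second C57BL/6 arrays and 7613.6 and 9281.2 on the AND-TCR transgenic arrays of U74Av2. The groups did not overlap, and the lower AND-TCR transgenic reading was well above the higher C57BL/6 reading. The log2 fold change was 1.31 ± 0.17 (SE, n = 2 hybridizations per group; 95% interval 0.90 to 1.72), a 2.48-fold difference, with an adjusted p of 0.0248 in limma. Within the first day the log2 ratio was 1.28 and within the second 1.35. With the hybridization number as a block the adjusted p was 0.000312 in limma, and the SE was 0.16 instead of 0.17. Deviations of same-numbered samples correlated at 0.04 over the tested U74Av2 probe sets, so the smaller p is no sign that the pairing helped. Its log2 fold change ranked 36th among the 62 probe sets called higher, which ran from 0.80 to 3.32. The size changed little when an array was left out, but with 3 arrays left the call was lost each time, with log2 fold changes of 1.17 to 1.45 and adjusted p of 0.189 to 0.441 in limma, and no probe set at all was called higher or lower in those fits. Beside the shift in the thymocyte markers given above, the dendritic cell markers had sums of 16481.2 and 17052.7 against 23283.7 and 23181.2, while those of B cells were 25901 and 26471.3 against 22456.1 and 24154.8. Neutrophil markers had sums of 5300.7 and 3991.5 against 7867 and 5493.8, and red blood cell markers of 11266.6 and 13384.5 against 9103.8 and 6893.3. Ighm read 19965.4 and 22304.6 against 16012.4 and 16775.3, which was most of the B cell sums. Of the 6 tested B cell genes 4 had negative estimates, while Blk (2.08) and Pax5 (0.56) had positive ones on the log2 scale. Hba-a1, at 9709.7 and 11407.1 against 6639.3 and 4378, made up most of the red blood cell sums. Klf1, the other tested red blood cell gene, had a log2 fold change of 0.19. Sums for macrophages (5872.7 and 8406.6 against 8873.6 and 8665.2) and stroma (4230.3 and 4150 against 4748.8 and 7297.6) did not overlap between the groups either, and those for NK cells (12898.6 and 15065.3 against 14403.9 and 12209.7) did. Of the 12 stroma genes on the arrays, 7 passed the limit on no array and 1 was tested. That gene, Epcam, read 2611 and 2497.8 against 1741.4 and 3862.4, which overlapped, so the gap in the stroma sums did not come from it. The part of these cell types in the Itgb7 result was not tested. A further Itgb7 probe set, 162193_f_at, read 264.9 and 174.8 in C57BL/6 and 394.8 and 711.1 in AND-TCR transgenic samples. Only the last of these passed the limit, so it was not tested.

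Itgb2, the beta chain of LFA-1, read 4028 and 4836.8 in C57BL/6 and 6138.1 and 6209.2 in AND-TCR transgenic thymocytes at probe set 102353_at. All 4 readings were far above the limit and the groups did not overlap. The log2 fold change of Itgb2 was 0.48 ± 0.16 (SE, 95% interval 0.10 to 0.86), or 1.40-fold, and it missed the threshold with an adjusted p of 0.249 in limma and 0.195 with the block. The ratio was 0.61 on the first day and 0.36 on the second, both on the log2 scale. On the same arrays the log2 fold change of Itgb7 exceeded that of Itgb2 by 0.67 on the first day and 0.99 on the second.

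Itgb1, the beta chain shared by the largest number of alpha chains, was measured by 3 tested probe sets that did not tell the same story. Probe set 100123_f_at, whose suffix marks probes that related sequences can share, read 5587.1 and 5019.5 in C57BL/6 and 4764.6 and 5034 in AND-TCR transgenic samples. These readings overlapped, and the log2 fold change was -0.11 ± 0.15 (SE, 95% interval -0.47 to 0.25; adjusted p = 0.808 in limma). Probe set 100124_r_at read 3078.1 and 2169.2 against 2678.6 and 1924.2, also overlapping, with a log2 fold change of -0.19 ± 0.27 (SE; adjusted p = 0.825 in limma). The sign of this small difference turned when the first C57BL/6 array (0.066) or the second AND-TCR transgenic array (0.052) was left out. The probe set on U74Cv2, 141172_at, read 3770.9 and 4045 in C57BL/6 and 1156.6 and -1053.8 in AND-TCR transgenic samples. Both AND-TCR transgenic readings were thus under the limit, so this Itgb1 probe set was at least 2.47-fold lower there, with an adjusted p of 0.121 in limma. It had entered the test through the C57BL/6 readings alone, which fixed its direction, so the sign is no evidence of a difference. With the floor at 2 times the limit its log2 fold change was -0.31. On the U74Av2 arrays the log2 fold change of Itgb7 exceeded that of Itgb1 at 100123_f_at by 1.51 on the first day and 1.34 on the second. These differences between genes were not tested.

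**Figure D2:**
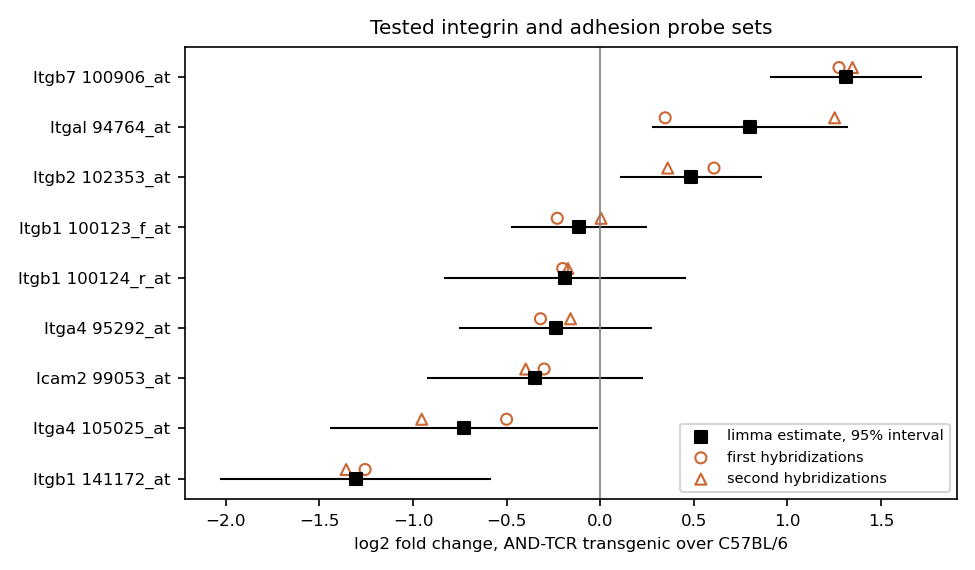
Log2 fold changes of the 9 tested probe sets, AND-TCR transgenic over C57BL/6, with black squares for the limma estimate and lines for its 95% interval. Orange circles and triangles are the ratios within the first and second hybridizations. Itgb7 at 1.31 has the highest estimate and Itgb1 141172_at at -1.31 the lowest, and the latter is a bound whose direction the filter fixed, because both AND-TCR transgenic readings were under the limit.

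Of the alpha chains, that of LFA-1 gave the largest positive estimate. Itgal read 5047.2 and 3531.2 in C57BL/6 and 6418.4 and 8410.9 in AND-TCR transgenic thymocytes at probe set 94764_at. The groups did not overlap, although the C57BL/6 arrays differed from each other by more than the higher of them differed from the first AND-TCR transgenic array. The log2 fold change of Itgal was 0.80 ± 0.22 (SE, 95% interval 0.27 to 1.32), or 1.74-fold, with an adjusted p of 0.179 in limma. With the hybridization number as a block it passed the threshold (adjusted p = 0.0489 in limma). That made 2 higher and none lower of the 6 tested genes, where 1.39% and 1.25% of all tested genes were then higher and lower. From the first to the second day Itgal moved by -0.52 in C57BL/6 and by 0.39 in AND-TCR transgenic samples on the log2 scale. The groups thus shared no day shift that the block could remove, so this pass is not support from the pairing. The log2 ratio was 0.35 on the first day and 1.25 on the second. The difference between the log2 fold changes of Itgal and Itgb2, which encode the chains of 1 receptor, was -0.26 on the first day and 0.89 on the second, so its sign was not the same on both days.

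Itga4, the alpha chain that joins the Itgb7 or the Itgb1 product, had 4 probe sets, of which 2 could be tested. Probe set 105025_at on U74Bv2 read 1827.7 and 1713 in C57BL/6 and 1291.9 and 884.3 in AND-TCR transgenic samples. The groups did not overlap, and the second AND-TCR transgenic reading was just above the limit. The log2 fold change of Itga4 there was -0.73 ± 0.29 (SE, 95% interval -1.44 to -0.01), 1.66-fold lower, with an adjusted p of 0.351 in limma. On the first day the log2 ratio was -0.50 and on the second -0.95. These readings were close to the limit, and with the floor at 2 times the limit the log2 fold change was -0.036. Probe set 95292_at on U74Av2 read 525 and 469.7 against 281.6 and 293.8. Both AND-TCR transgenic readings were under the limit, which makes it at least 1.18-fold lower, with an adjusted p of 0.694 in limma, and it too had entered the test through C57BL/6 alone, which fixed its direction. The remaining Itga4 probe sets were not tested, since 102655_at read 625.3 and 316.7 against 394.6 and 455.1 and 102656_at was under the limit on all 4 arrays. The 4 probe sets therefore gave no call for Itga4.

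Itgae, the alpha chain that pairs with the Itgb7 product on cells among epithelium, was near or under the limit throughout. Its probe set 161730_f_at read -242.9 and 0.5 in C57BL/6 and 352.3 and 549.1 in AND-TCR transgenic samples, and only the second AND-TCR transgenic reading passed the limit. Probe set 93961_at of Itgae read between 65.8 and 295.5 on the 4 arrays and passed it on none. Itga6, a laminin-binding alpha chain, read 116.7 and 430.3 against 81 and 276.9, which was above the limit on the second C57BL/6 array alone. Neither gene could be tested, and a difference under the limit was not detectable on these arrays.

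Of the ligands of LFA-1, Icam2 was measurable and Icam1 was not. Icam2, which is carried by vessel walls and by lymphocytes, read 2137.4 and 2676.9 in C57BL/6 and 1736.2 and 2030.9 in AND-TCR transgenic samples at probe set 99053_at. The groups did not overlap, but the gap between them was smaller than the spread within either. The log2 fold change of Icam2 was -0.35 ± 0.24 (SE, 95% interval -0.93 to 0.23; adjusted p = 0.596 in limma), with -0.30 on the first day and -0.40 on the second. Icam1, an inducible ligand of many cell types, read 336.6 and 441.5 against 497.8 and 298.3, crossing the limit once in each group. It was not tested.

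Cd44, the hyaluronan receptor that is low on most thymocytes and high on the earliest ones and on memory T cells, could not be tested by any of its 5 probe sets. On U74Av2 the probe sets 103003_i_at, 103004_r_at and 103005_s_at read between -377 and 93.1 and never passed the limit. On U74Bv2, 109403_at read 513.2 and 465.5 in C57BL/6 and 1064 and 701.8 in AND-TCR transgenic samples, and 114697_at read 873.6 and 789.5 against 1354.8 and 168.2. The first AND-TCR transgenic array passed the limit at both and the second at neither, and the first C57BL/6 array was just above it at 114697_at.

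Taken as genes, each at its tested probe set with the highest mean, 1 of the 6 tested members was called (16.7%), a description of these named genes only, where 0.65% of all 7843 tested genes were called higher and 0.612% lower. Positive estimates were found for 3 genes (Itgb7, Itgal, Itgb2) and negative ones for the other 3 (Itga4, Icam2, Itgb1), and 52.8% of all tested genes had a positive estimate. The median log2 fold change was 0.19 over the 6 genes and 0.03 over all tested genes, and the median size without sign was 0.61 against 0.26. With a mean over the probe sets of each gene the median of the 6 became 0.067.

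The rest of the adhesion machinery was read from lists of other genes. A list of 58 genes held proteins that regulate integrin activity, in either direction, or link integrins to the cytoskeleton. Of these genes 54 were on the arrays and 43 were tested. Among the 43, 2 were higher and none was lower (4.65% against the 0.65% of all tested genes called higher). With the block 6 were higher, where 1.39% of all tested genes were. The median log2 fold change of the 43 was 0.29, with 34 positive, and 31 (72.1%) were higher on both days, against 31.1% of all tested genes. This list was chosen with earlier results of these data known, so these shares describe its genes only. Cytip, a partner of the cytohesin that regulates LFA-1, read 14537.4 and 15995.8 in C57BL/6 and 26226.8 and 28813.5 in AND-TCR transgenic samples at 104257_g_at. Its 4 probe sets had log2 fold changes from 0.73 to 1.19, and those on U74Av2 were called (adjusted p = 0.0318 and 0.0438 in limma). Rapgef6, an exchange factor that activates the Rap GTPases upstream of integrins, read 8073.3 and 7160.9 against 13552.8 and 13790.5, a log2 fold change of 0.85 ± 0.11 (SE; adjusted p = 0.0383 in limma). For both genes the AND-TCR transgenic readings were far above those of C57BL/6, and both calls were lost when any array was left out.

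Several more genes of this list missed the threshold. Evl, an actin regulator, had a log2 fold change of 1.41 ± 0.36 (SE, adjusted p = 0.146 in limma, 0.0459 with the block), and the GTPase Rap2b had 1.38 ± 0.33 (adjusted p = 0.122 in limma). The C57BL/6 readings of Rap2b, 629 and 579.5, were close to the limit of 420.8. Its other probe sets, 99874_at and 164066_at, were not tested. Rapgef2, another exchange factor for Rap, had 1.20 ± 0.18 (SE; adjusted p = 0.0556 in limma). Moesin (Msn), which links membrane receptors to actin, had 0.68 ± 0.14 (SE; adjusted p = 0.0898 in limma, 0.0161 with the block). The adaptors that sit on integrin tails had smaller estimates, with log2 fold changes of 0.35 ± 0.20 for talin (Tln1) and 0.34 ± 0.18 for kindlin-3 (Fermt3), named here after their values were seen and with adjusted p of 0.493 and 0.458 in limma. Another Tln1 probe set above the limit on all 4 arrays, 99448_at, had 0.10 ± 0.30 (SE, adjusted p = 0.921 in limma). Ezrin (Ezr), a relative of moesin also named after its values were seen, had -0.39 ± 0.16 (SE; adjusted p = 0.351 in limma).

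**Figure D3:**
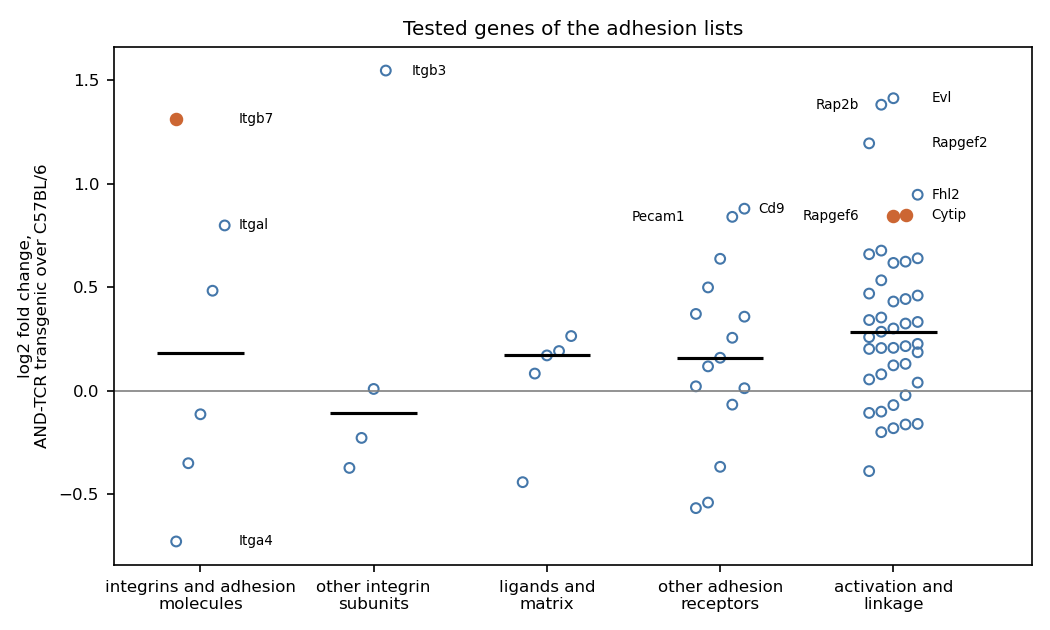
Log2 fold change, AND-TCR transgenic over C57BL/6, of every tested gene in 5 adhesion lists, each gene at the probe set with its highest mean. Filled orange points passed the limma test, open blue points did not, and black bars are list medians. The list of activation and linkage genes has its median at 0.29 and holds Cytip and Rapgef6, and the members hold Itgb7 as their 1 called gene. Genes are named where they were called or their log2 fold change was 0.7 or more in size.

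Few other integrin subunits, and few ligands, were measurable in these thymocytes. Of 18 other integrin genes on the arrays 4 were tested and none was called. One of them was Itgb3, named after its values were seen, which encodes the beta chain of the platelet fibrinogen receptor and of the vitronectin receptor. Itgb3 read 423.7 and -373.1 in C57BL/6 and 2480.7 and 2604.1 in AND-TCR transgenic samples at 112196_at, at least 2.92-fold higher with an adjusted p of 0.0693 in limma. It had entered the test through the AND-TCR transgenic readings alone, which fixed its direction. Its other probe set, 99904_at, was under the limit on all 4 arrays. Of 5 platelet markers none was tested, Itga2b, Gp1bb and Ppbp never passed the limit, and Pf4 passed it on the first C57BL/6 array (428.3) and Gp9 on the second array of each group (682.4 and 585.7). Their part in the Itgb3 readings was not tested. Of 25 ligand and matrix genes on the arrays 5 were tested and none was called or had an unadjusted p under 0.05 in limma. Vcam1, a ligand of the receptors that contain the Itga4 product, had a log2 fold change of 0.17 ± 0.32 at 92558_at (SE; adjusted p = 0.867 in limma). Another tested Vcam1 probe set, 92560_g_at, had -0.16 ± 0.25 (SE; adjusted p = 0.838 in limma).

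Of 23 other adhesion receptors of lymphocytes on the arrays 15 were tested and none was called. At an unadjusted p under 0.05 in limma 2 genes were higher and 1 was lower, each gene read at 1 probe set. The shares over all tested probe sets, which count every probe set of a gene, were 7.47% and 6.51%. Of the 2 higher, Cd9, named after its values were seen, had entered the test through the AND-TCR transgenic arrays alone, which fixed its direction. The median log2 fold change of the 15 was 0.16. Heat stable antigen (Cd24a), which is known to be lost as thymocytes mature, read 10198 and 11276.3 in C57BL/6 and 6631.6 and 8211.1 in AND-TCR transgenic samples, a log2 fold change of -0.54 ± 0.16 (SE; adjusted p = 0.194 in limma). Cd96 had -0.57 ± 0.31, Emb 0.50 ± 0.20, Cd6 0.26 ± 0.17, Selplg, the ligand of P-selectin, 0.16 ± 0.13, and Cd47 0.12 ± 0.14 (log2 fold changes with SE). None of these 5 passed the test, with adjusted p of 0.324 to 0.762 in limma. A further Cd6 probe set above the limit on all 4 arrays, 92204_at, had the other sign, at -0.14 ± 0.19 (SE; adjusted p = 0.802 in limma). A further Cd47 probe set, 95020_at, had 0.06 ± 0.19 (SE; adjusted p = 0.925 in limma).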

How the data were processed

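The deposited values are intensities that the authors obtained with Microarray Suite Version 4.0 and scaled within each array, with trimmed means (lowest and highest 2% dropped) of 1000.4 to 1000.9. Negative values occur. The scaling target is not given in the sources used here. Each array was brought to the mean of its type. The limit was 2 noise SDs, with noise SD taken as 1.4826 times the median absolute negative reading. Of 36701 probe sets 12844 (35.0%) passed the filter. Log2 values floored at the limit were fitted with limma 3.58.1 in R 4.3.3 (lmFit, eBayes with trend), 1 fit per array type, with Benjamini-Hochberg adjustment over all 3 types. Gene names came from the platform annotation. All members are named. From each other list the called genes, then up to 6 in all with the largest difference, above the limit on all 4 arrays and in 1 direction on both days, are named, the rest being marked as seen first. For the block, the pairing comes from the day in the file headers. Deviations of same-numbered samples correlated at 0.04, -0.12 and -0.23 on U74Av2, U74Bv2 and U74Cv2. The days thus held little shared variation for the block to remove, and a smaller p with the block is no sign that the pairing helped. Scripts were tested on simulated data. Figures used Python 3.11.15 and matplotlib 3.10.9. With 2 arrays against 2 an exact permutation test cannot pass 0.05. Members and lists were chosen with earlier results of these data known. The number of arrays limits the precision.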

Additional observations from a re-analysis of the deposited data

How the results depend on the processing

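The estimates for the 9 tested probe sets kept their direction under nearly all alternatives, and the calls did not. With the floor at 2 times the limit Itga4 105025_at moved from -0.73 to -0.036 and Itgb1 141172_at from -1.31 to -0.31, and Itga4 95292_at became 0, since readings near the limit are set to the floor there. The number of probe sets called higher and lower was 155 and 151 with the replicate block, 1 and 9 without a trend in the prior variance, 0 and 0 with a floor at 2 times the limit (1357 had an unadjusted p under 0.05 in limma), 159 and 168 with a pseudocount, 38 and 24 without a filter, 129 and 127 with all 4 arrays required above the limit, and 104 and 124 with median centring. Leaving out any replicate gave 0 and 0 (1290 to 1968 at an unadjusted p under 0.05 in limma). The integrin and adhesion genes called higher were 2 with the replicate block and 0 without the trend, with the doubled floor, without the filter and without any 1 replicate. The activation and linkage genes called higher were 6 with the block, 4 with quantile normalization, and 0 in those same fits. With the pseudocount 1 other integrin subunit was called higher. Itgb7 was called under 5 of 8 alternatives that kept all arrays, with log2 fold changes of 1.21 to 1.32 and adjusted p of 0.000312 to 0.357 in limma. Without the filter most residual variances were 0, so calls there are unreliable. The median of the tested adhesion genes was 0.067 with the mean over probe sets and 0.14 to 0.22 otherwise. Without 1 replicate Itgb1 100124_r_at ran from -0.44 to 0.066, turning to 0.066 without the first C57BL/6 and to 0.052 without the second AND-TCR transgenic replicate. The cause was not tested. With the pairing crossed, chosen after seeing the data, 229 probe sets were called higher and 226 lower, which is more than with the true pairing. The crossed fit called 2 adhesion genes, 1 other integrin subunit and 8 activation genes higher. The block changed no other call of an adhesion gene than that of Itgal. The probe sets under the limit set what could be seen: 12 of the 21 have no test.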
